A study of Mus musculus with 2 samples.

Results

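The expression of 10 genes was described in splenic T cells: Dapl1, Pdlim4, Fam46a, Ggt1, Ggt5, Igsf23, Glipr2, Il18r1, Igfbp4 and Tesc. They had been picked because they marked a naive CD4 T cell state that was more frequent in 1 of the 2 libraries, so the comparison of those libraries describes the choice and supports nothing by itself. Each was found by its symbol, and all 10 were among the 30905 genes of both count tables.

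The cells were CD3+ T cells sorted from the spleens of C57BL/6 mice and profiled by droplet single-cell RNA sequencing with the 10x Genomics 3′ V3.1 chemistry, which counts unique molecular identifiers (UMIs) near the 3′ end of each transcript. One library came from Prmt5 conditional knockout mice (CKO), in which CD4-Cre deletes a floxed Prmt5 gene, and the other from control mice. CD4-Cre is active from the stage at which thymocytes carry both CD4 and CD8, so CD4 and CD8 T cells both carry the deletion. The genotype field reads CD4-Cre+ PRMT5fl/fl for both samples, and the groups were taken from the titles. The design text gives 3 mice per group, but no file ties cells to mice, so each group counted as 1 sample without replicates, and an effect of genotype cannot be told apart from one of library preparation.

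PRMT5 is the main enzyme that places symmetric dimethyl groups on arginines of histones, Sm proteins and other targets. Naive CD4 T cells are resting cells that circulate through lymphoid organs until they meet antigen. The 10 genes do not form 1 pathway. Ggt1 and Ggt5 encode cell-surface γ-glutamyltransferases, which cleave glutathione and related peptides outside the cell. Il18r1 encodes the chain that binds interleukin-18, and Igfbp4 a secreted protein that binds insulin-like growth factors. Pdlim4 encodes an adaptor with PDZ and LIM domains at the actin cytoskeleton, and Tesc a calcium-binding protein. Fam46a, now named Tent5a, belongs to a family of poly(A) polymerases, Glipr2 encodes a Golgi-associated protein, Dapl1 a small relative of the death-associated protein Dap, and Igsf23 a member of the immunoglobulin superfamily.

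The CKO library held 7896 cell barcodes and 52387620 UMIs and the control library 7407 barcodes and 48273424 UMIs. Of these, 7660 and 6712 passed the filters, and 7563 and 6618 were T cells. They shared 11 barcodes, 7 of them among the cells kept. Levels are given as CPM, the UMIs of a gene scaled to a fixed total of all UMIs in the sum. Prmt5 was at 4.87 CPM in CKO T cells (95% Poisson interval 4.29 to 5.51, 250 UMIs) and at 15.03 CPM in control T cells (13.9 to 16.2, 702 UMIs). Cells with Y-linked UMIs and no Xist, and cells with Xist and no Y-linked UMIs, were present in both libraries, 2213 and 3326 in CKO and 1671 and 3233 in control. All intervals below are at 95% and cover counting error only. A log2 ratio is the log2 of the CPM in CKO over the CPM in control.

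Cells were clustered without the 10 genes. Naive-like CD4 cells, with Cd4 and without the marks of memory cells, numbered 4042 in CKO and 2859 in control. The naive markers Lef1, at 664 CPM in CKO and 663 CPM in control, Tcf7, at 359 and 402 CPM, and Ccr7, at 232 and 321 CPM, matched the label. All 4 B cell markers stayed under 5 CPM in both libraries, with sums of 3.24 and 2.60 CPM. Of the 6 naive-like CD4 clusters, 1 had 5 of the 10 genes (Pdlim4, Igfbp4, Ggt5, Igsf23 and Dapl1) among its 10 leading genes, beside Ly6c1, Acvrl1, Cd40lg, Lck and Pdk1. It held 2049 CKO cells and 527 control cells, and is called the member-led cluster.

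On mm10 the genes lie on 8 chromosomes, and only Ggt1 (chr10:75561604-75586200, plus strand) and Ggt5 (chr10:75589340-75617200, plus strand) are neighbours, 3139 bases apart. Dapl1 lies at chr2:59484653-59505020 on the plus strand, Pdlim4 at chr11:54054928-54069014 on the minus strand and Igfbp4 at chr11:99041244-99054392 on the plus strand. All 10 are protein-coding genes. RefSeq promoters, 250 bases before to 50 bases after a transcript start on GRCm38.p6, were found for 9 of the 10 genes, 16 promoters in all. As examples, the promoters of the 2 most abundant ones (Dapl1 and Igfbp4), of the one that set the member-led cluster apart most (Pdlim4) and of the one with the highest ratio between libraries (Ggt1, 1 of 4 promoters) are shown. Each is written 5′ to 3′ on the gene's strand, and capitals mark the SP and KLF motif GGGCGG on either strand.
Dapl1, chr2:59484403-59484702: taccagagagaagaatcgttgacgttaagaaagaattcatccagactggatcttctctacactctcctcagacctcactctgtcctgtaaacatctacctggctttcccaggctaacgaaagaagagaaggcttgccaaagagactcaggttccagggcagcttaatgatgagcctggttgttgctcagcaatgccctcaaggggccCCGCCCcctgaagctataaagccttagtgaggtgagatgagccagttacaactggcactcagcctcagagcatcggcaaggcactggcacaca
Igfbp4, chr11:99040994-99041293: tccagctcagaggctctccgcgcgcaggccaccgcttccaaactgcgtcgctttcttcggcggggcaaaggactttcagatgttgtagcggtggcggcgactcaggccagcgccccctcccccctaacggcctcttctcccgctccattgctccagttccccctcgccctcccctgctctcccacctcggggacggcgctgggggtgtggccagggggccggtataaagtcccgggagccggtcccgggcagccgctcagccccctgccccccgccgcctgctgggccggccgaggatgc
Pdlim4, chr11:54068968-54069267: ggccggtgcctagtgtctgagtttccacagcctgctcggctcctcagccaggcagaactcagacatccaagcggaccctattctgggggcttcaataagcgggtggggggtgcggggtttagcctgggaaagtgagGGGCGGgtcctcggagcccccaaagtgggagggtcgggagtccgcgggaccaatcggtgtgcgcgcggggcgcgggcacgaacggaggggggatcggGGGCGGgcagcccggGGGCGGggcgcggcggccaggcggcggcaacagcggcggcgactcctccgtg
Ggt1, chr10:75563882-75564181: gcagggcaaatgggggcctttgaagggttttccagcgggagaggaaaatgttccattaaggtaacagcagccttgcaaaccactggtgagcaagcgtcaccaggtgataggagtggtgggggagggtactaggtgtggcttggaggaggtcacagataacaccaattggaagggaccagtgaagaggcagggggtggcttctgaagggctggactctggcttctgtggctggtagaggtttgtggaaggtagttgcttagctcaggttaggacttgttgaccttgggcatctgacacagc

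The promoter of Pdlim4 was rich in CpG, with 31 CpG dinucleotides, and so was that of Igfbp4, with 27. Dapl1 had 5 and the Ggt1 promoter shown had 2 (the other 3 Ggt1 promoters had 7, 8 and 10), against a median of 7 over 32851 promoters of the same length. GGGCGG occurred in 8 of the 16 promoters, belonging to 6 of the 9 genes (Dapl1, Fam46a, Ggt1, Glipr2, Pdlim4 and Tesc), and in 35.7% of all promoters. The TCF and LEF core ACAAAG occurred in 1 of the 16 promoters (of Ggt1) and in 18.7% of all promoters. The RUNX motif TGTGGT occurred in 3 of the 16 promoters, belonging to 3 genes (Ggt1, Igsf23 and Il18r1), and in 16.8% of all promoters. AP-1 (TGACTCA) occurred in none of the 16 and in 5.20% of all. No motif searched was shared by all 9 genes.

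In naive-like CD4 cells all 10 genes were more abundant in the CKO library, as were 57.3% of all genes tested, with a median log2 ratio of 0.69, against 0.04 over all 9932 genes with at least 50 UMIs. All 10 reached that minimum. The counting interval of the ratio lay above 0 for all 10, and for 22.6% of all genes. Only Ggt1 was at least 2-fold higher, as were 0.846% of all genes. Since the genes were chosen on this contrast, nothing is read from these counts. Summed over the 10 genes, the level was 1688 CPM in CKO (39573 UMIs) and 1161 CPM in control (19644 UMIs), a log2 ratio of 0.54 (0.51 to 0.56).

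The 2 enzymes of the γ-glutamyl family differed in level and in ratio. Ggt1 was at 13.9 CPM in CKO naive-like CD4 cells (326 UMIs) and at 4.43 CPM in control (75 UMIs), 3.14-fold higher (log2 1.65, 1.28 to 2.03). It ranked 13 of 9932 genes by this ratio. Ggt5 was at 33.1 CPM in CKO (775 UMIs) and 20.7 CPM in control (350 UMIs), a log2 ratio of 0.68 (0.49 to 0.86). The other genes of the glutathione cycle did not follow. Of 7 that reached 50 UMIs, none had an interval above 0 and 2 had one below: Ggct, which breaks down γ-glutamyl peptides in the cytosol, was at 13.8 and 16.9 CPM (log2 -0.29, -0.52 to -0.05), and Gclm, a subunit of the enzyme that starts glutathione synthesis, at 26.6 and 29.98 CPM (log2 -0.17). Lta4h, of leukotriene synthesis, was at 36.8 and 45.3 CPM (log2 -0.30).

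The gene on the other side of Ggt1 was also higher. Lrrc75b, on the minus strand 1273 bases before Ggt1, had 90 UMIs in CKO (3.84 CPM) and 24 in control (1.42 CPM), a log2 ratio of 1.44 (0.77 to 2.15). Beyond Ggt5, Cabin1 lay 28911 bases away with a log2 ratio of 0.16 (0.04 to 0.27). Along the locus the ratios of Ggt1 and Lrrc75b were thus above that of Ggt5, and that of Ggt5 above that of Cabin1. Beside the other members, the neighbours that reached 50 UMIs lay between -0.47 and 0.25, the lowest being Ccr7, 89803 bases from Igfbp4, at 232 and 321 CPM. Their distances ran from 3086 bases (Fbxw8) to 4131167 bases (Zfp180), so this range is not one of close neighbours alone. The 3 neighbours Lrrc75b, Cabin1 and Ccr7 were singled out after their values were seen.

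Among genes of secreted and surface proteins, Igfbp4 was the most abundant member by UMIs, at 743 CPM in CKO (17432 UMIs) and 455 CPM in control (7700 UMIs), with a log2 ratio of 0.71 (0.67 to 0.75). In its pathway 2 other genes reached the minimum, and they lay on opposite sides of 0: Igf1r, the growth factor receptor, at 14.2 and 20.5 CPM (log2 -0.53) and Igf2r at 42.5 and 37.5 CPM (log2 0.18). Il18r1 was at 22.2 CPM in CKO (520 UMIs) and 13.5 CPM in control (229 UMIs), a log2 ratio of 0.71 (0.48 to 0.94). None of the 9 other genes of the interleukin-18 and interleukin-1 receptor pathway that reached 50 UMIs had an interval off 0. Igsf23 was at 28.0 CPM in CKO (656 UMIs) and 21.8 CPM in control (368 UMIs), a log2 ratio of 0.36 (0.18 to 0.55).

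Of the intracellular proteins, Pdlim4 was at 101 CPM in CKO (2373 UMIs) and 63.97 CPM in control (1082 UMIs), a log2 ratio of 0.66 (0.56 to 0.77). Its relatives stayed closer to 0: Pdlim1 was at 113 and 106 CPM (log2 0.09), and Pdlim2, Pdlim5 and Pdlim7 had intervals that included 0. Fam46a was at 37.4 CPM in CKO (878 UMIs) and 22.1 CPM in control (373 UMIs), a log2 ratio of 0.76 (0.59 to 0.94). Its paralogue Fam46c went the other way, from 58.7 CPM in control to 45.6 CPM in CKO (log2 -0.36, -0.49 to -0.24). Glipr2 was at 36.8 CPM in CKO (864 UMIs) and 21.2 CPM in control (359 UMIs), a log2 ratio of 0.80 (0.62 to 0.98), and its relative Glipr1 at 54.6 and 40.7 CPM (log2 0.42).

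The smallest ratios belonged to Tesc and Dapl1. Tesc was at 135 CPM in CKO (3155 UMIs) and 120 CPM in control (2026 UMIs), a log2 ratio of 0.17 (0.09 to 0.25), and it ranked 2848 of 9932 genes by this ratio. Dapl1 was at 537 CPM in CKO (12594 UMIs) and 419 CPM in control (7082 UMIs), a log2 ratio of 0.36 (0.32 to 0.40). Its relative Dap was at 64.2 and 71.3 CPM (log2 -0.15).

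**Figure D1:**
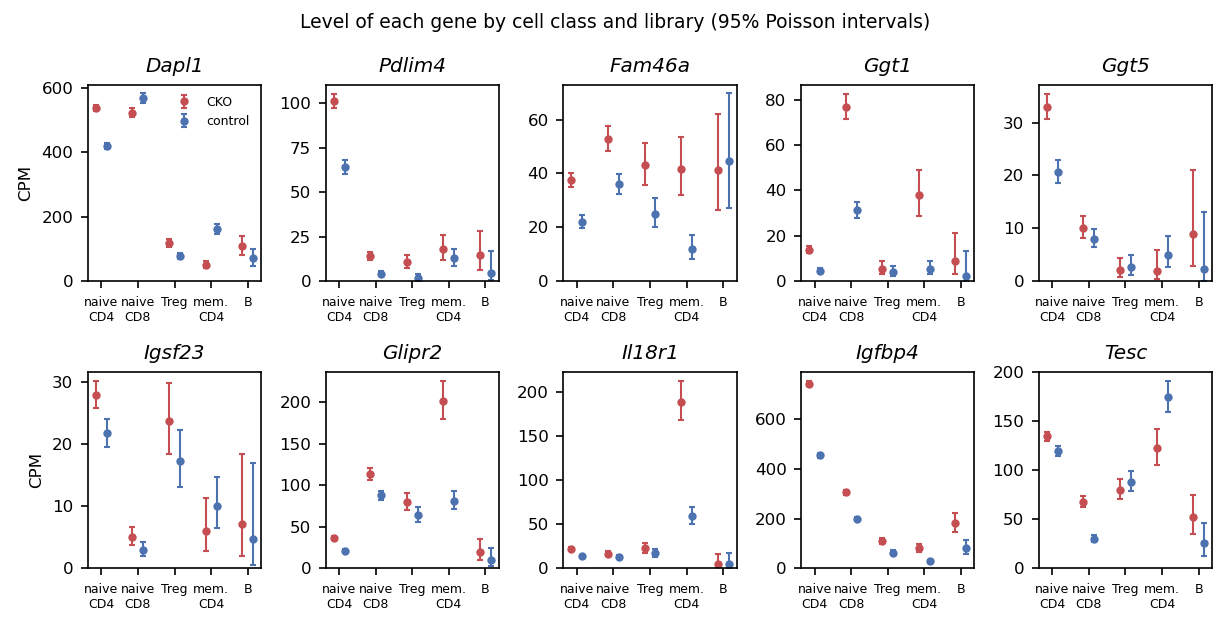
Level in CPM (vertical axes, from 0) of each of the 10 genes in 5 cell classes (horizontal axes), with CKO in red, control in blue and bars for 95% Poisson intervals. Dapl1 stood at 537 and 419 CPM in naive-like CD4 cells but at 523 and 568 CPM in naive-like CD8 cells, and of the 5 classes Ggt1 was highest in naive-like CD8 cells in both libraries.

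Naive-like CD8 cells, 1291 in CKO and 1451 in control, showed a different order. Pdlim4 was at 13.8 CPM in CKO (132 UMIs) and 4.09 CPM in control (43 UMIs), a log2 ratio of 1.76 (1.25 to 2.29). These low levels were close to those in B-like cells, 14.4 CPM in CKO (8 UMIs) and 4.71 CPM in control (2 UMIs). Whether naive-like CD8 cells themselves made these transcripts was not tested. Ggt1, at 76.8 CPM in CKO (732 UMIs) and 31.1 CPM in control (327 UMIs), had a log2 ratio of 1.30 (1.11 to 1.495). Tesc, nearly level in CD4 cells, was at 68.0 CPM in CKO (648 UMIs) and 30.3 CPM in control (318 UMIs), a log2 ratio of 1.17 (0.97 to 1.37). These 3 were the members at least 2-fold higher there, against 1.05% of 9048 genes. Dapl1 was lower in CKO, at 523 CPM (4982 UMIs) against 568 CPM (5964 UMIs), a log2 ratio of -0.12 (-0.17 to -0.06). The interval lay above 0 for 8 members, and for 22.4% of all genes. The summed level was 1185 CPM in CKO and 978 CPM in control, a log2 ratio of 0.28 (0.24 to 0.32), and 0.69 (0.63 to 0.75) without Dapl1.

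Treg-like cells, 433 in CKO and 491 in control, held fewer UMIs of these genes, and 7 of the 10 reached 50 UMIs. The summed level was 495 CPM in CKO and 360 CPM in control, a log2 ratio of 0.46 (0.35 to 0.57). Of the 7, 4 had an interval above 0 (11.2% of 7580 genes) and none was at least 2-fold higher (0.778%). Igfbp4 was at 111 and 62.8 CPM (log2 0.82), Fam46a at 43.0 and 24.9 CPM (log2 0.78) and Dapl1 at 118 and 76.9 CPM (log2 0.61). The levels of Igfbp4, Fam46a and Dapl1 were near or below those in B-like cells. There Igfbp4 was at 182 and 82.5 CPM, Fam46a at 41.4 and 44.8 CPM and Dapl1 at 108 and 70.7 CPM. Glipr2, which also had an interval above 0, was at 79.5 and 64.3 CPM in Treg-like cells (log2 0.31, 0.03 to 0.58). That was above its levels in B-like cells, 19.8 CPM in CKO (11 UMIs) and 9.42 CPM in control (4 UMIs). In Treg-like cells Tesc was at 80.2 and 88.3 CPM, with an interval that included 0. Pdlim4 had 31 UMIs in CKO and 6 in control, under the minimum.

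**Figure D2:**
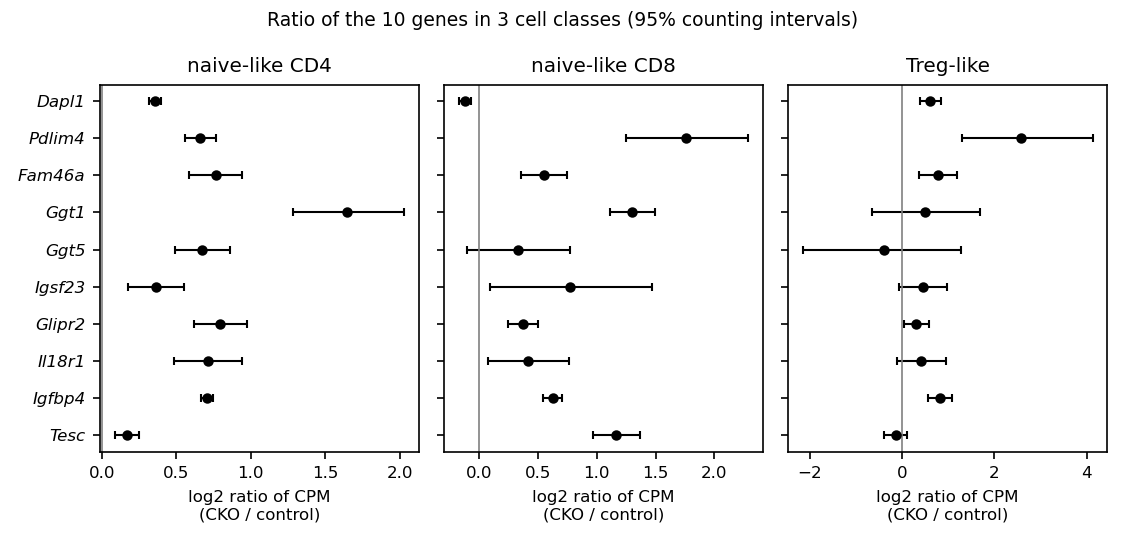
Log2 ratio of CPM, CKO over control (horizontal axes, which differ in range between panels), of each gene in naive-like CD4, naive-like CD8 and Treg-like cells, with 95% counting intervals and a grey line at 0. All 10 points lay above 0 in naive-like CD4 cells, whereas Dapl1 lay below 0 in naive-like CD8 cells.

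Interferon-responding-like cells, 450 in CKO and 328 in control, had 3 members at least 2-fold higher in CKO, against 0.747% of 6694 genes. Ggt5 was at 24.96 CPM in CKO (73 UMIs) and 10.2 CPM in control (24 UMIs), a log2 ratio of 1.29 (0.61 to 2.02). Igfbp4 was at 640 and 287 CPM (log2 1.15) and Ggt1 at 29.1 and 14.01 CPM (log2 1.05). The interval lay above 0 for 6 members, and for 10.4% of all genes. Dapl1 was nearly level there, at 405 and 395 CPM (log2 0.04, -0.09 to 0.16). The class pooled CD4 and CD8 cells in different proportions. A cluster with Cd4 in 52.3% of cells held 330 of the 450 CKO cells and 181 of the 328 control cells. Another, with Cd8b1 in 91.6% of cells, held 99 CKO and 126 control cells. The part of this mix in the ratios was not tested.

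In memory-like CD4 cells the genes lay on both sides of 0. Il18r1 was at 189 CPM in CKO (285 UMIs) and 59.3 CPM in control (154 UMIs), a log2 ratio of 1.67 (1.38 to 1.96). Ggt1 was at 37.8 CPM in CKO (57 UMIs) and 5.39 CPM in control (14 UMIs), a log2 ratio of 2.81 (1.95 to 3.77). Dapl1 was lower, at 50.4 CPM in CKO (76 UMIs) and 162 CPM in control (421 UMIs), a log2 ratio of -1.69 (-2.06 to -1.33), and Tesc was at 123 and 175 CPM (log2 -0.51). Of 8 members at the minimum, 5 were at least 2-fold higher in CKO, against 2.22% of 6534 genes, and 5 had an interval above 0, against 13.9%. Different clusters held most of this class in each library: of 169 CKO cells, 93 lay in a cluster led by Ifitm1 and S100a4, and of 377 control cells, 217 lay in a cluster led by Maf and Itgb1. The part of this in the ratios was not tested.

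Within naive-like CD4 cells the member-led cluster was compared with the other clusters of the same library. In CKO cells, Pdlim4 was at 133 CPM in the cluster and 66.5 CPM in the other naive-like CD4 clusters, and Dapl1 at 675 and 387 CPM (log2 0.80). The interval of the ratio lay above 0 for 8 of the 10 genes, and for 8% of all genes, and Pdlim4 reached 2-fold, as did 0.194% of all genes. Since members chose the cluster, these values only describe it. Not every member followed: Ggt1 was at 14.9 and 12.9 CPM (log2 0.21, -0.11 to 0.54), and Tesc was lower in the cluster, at 125 and 145 CPM (log2 -0.21, -0.31 to -0.11). In control cells of the same cluster Fam46a was lower than in the other clusters, at 15.9 and 23.4 CPM (log2 -0.55, -1.02 to -0.11). In control cells the interval lay above 0 for Dapl1, Pdlim4, Glipr2 and Igfbp4 alone. Between libraries, within the cluster, all 10 genes were more abundant in CKO, with a median log2 ratio of 0.63 against 0.11 over 8583 genes. The interval lay above 0 for 8 of them, and for 19% of all genes, and 2, Ggt1 and Fam46a, were at least 2-fold higher (2.57%).

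Outside that cluster, which was singled out because these genes led it, the median log2 ratio of the 10 genes was 0.31, against 0.08 over 9394 genes. The interval lay above 0 for 8 of them (23.2% of all genes), and 1, Ggt1, was at least 2-fold higher (0.617%). Ggt1 kept 12.9 CPM in CKO and 4.24 CPM in control (log2 1.60, 1.15 to 2.06), Glipr2 28.9 and 17.8 CPM (log2 0.70) and Igfbp4 625 and 428 CPM (log2 0.55). Igsf23 was at 22.2 and 22.1 CPM (log2 0.01, -0.24 to 0.25), and Dapl1 was slightly lower in CKO, at 387 and 408 CPM (log2 -0.08, -0.14 to -0.02). Tesc was further apart outside the cluster than in all naive-like CD4 cells, with a log2 ratio of 0.26 against 0.17. The cluster held 50.7% of CKO and 18.4% of control naive-like CD4 cells, and its size depended on the settings, from 965 CKO and 19 control cells to 2921 CKO and 1231 control cells. With no cell filter the cluster with the most members among its leading genes (4) held 35.4% of CKO and 38.5% of control naive-like CD4 cells, so it was not more frequent in CKO. Under the other 4 settings its share was higher in CKO.

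**Figure D3:**
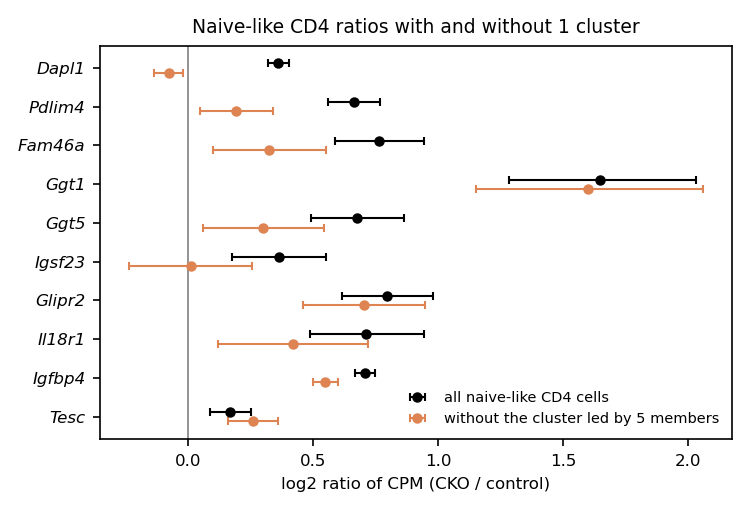
Log2 ratio of CPM, CKO over control (horizontal axis), of each gene in all naive-like CD4 cells (black) and without the cluster led by 5 of the genes (orange), with 95% counting intervals. Ggt1 stayed at 1.60 without the cluster, while Dapl1 moved from 0.36 to -0.08.

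Cells in which several of the genes were detected together were compared at equal depth, as the exact share expected when 2000 UMIs are drawn from each cell. At least 3 of the 10 were detected in 22.0% of 4007 CKO naive-like CD4 cells and in 11.9% of 2849 control cells, a ratio of 1.84 (1.62 to 2.09). At least 4 were detected in 6.26% and 2.13% (ratio 2.93, 2.21 to 3.95), and at least 1 in 83.7% and 76.3%. The mean number detected per cell was 1.66 in CKO and 1.30 in control. Since the genes were chosen on this contrast, higher shares in CKO describe the choice. How much of them came from joint detection was not tested. Without thinning the ratio for at least 3 was 1.25 (1.16 to 1.34). In naive-like CD8 cells at least 3 were detected in 15.3% and 7.24% (ratio 2.11, 1.66 to 2.71). B-like cells gave 3.12% of 71 cells (0.44 to 10.3) and 0.834% of 65 cells (0.0014 to 7.08). Not every gene was lower in B-like cells: Fam46a was at 41.4 and 44.8 CPM there, against 37.4 and 22.1 CPM in naive-like CD4 cells. The median depths of B-like cells were 5550 and 4495 UMIs, against 5553 and 5708 UMIs in naive-like CD4 cells. In B-like cells the summed level of the 10 genes was 448 CPM in CKO and 252 CPM in control. That log2 ratio, 0.83 (0.50 to 1.17), was above the 0.54 of naive-like CD4 cells, and its cause was not tested. Outside the member-led cluster the shares of naive-like CD4 cells were 14.7% and 10.98% (ratio 1.33, 1.12 to 1.59).

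**Figure D4:**
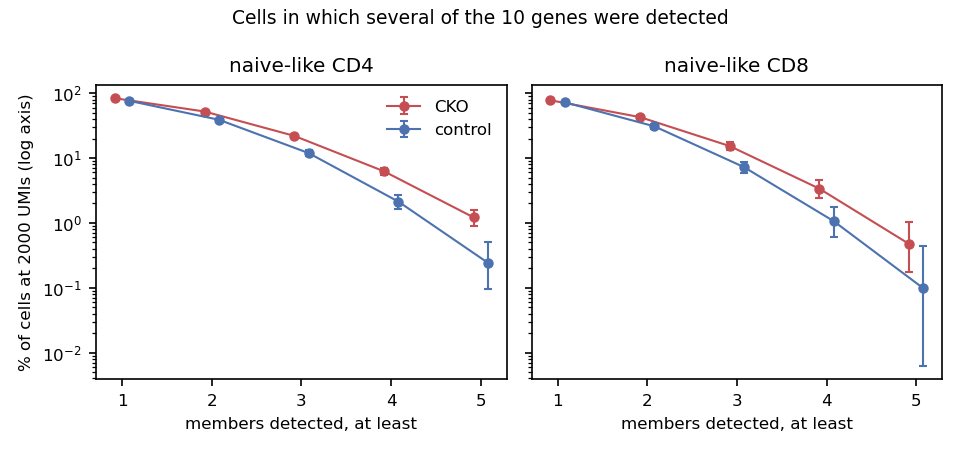
Percent of cells (vertical axis, log scale) in which at least 1 to 5 of the 10 genes were detected at 2000 UMIs (horizontal axis), with CKO in red, control in blue and 95% Clopper-Pearson intervals. In naive-like CD4 cells CKO was above control both at 1 gene, 83.7% and 76.3%, and at 4 genes, 6.26% and 2.13%.

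The share was also higher in CKO in cells of either sex marker. These cells are parts of the same 2 libraries and not replicates. Among naive-like CD4 cells with Y-linked UMIs and no Xist the shares with at least 3 genes were 22.5% and 12.3% (ratio 1.82, 1.43 to 2.34). Among those with Xist and no Y-linked UMIs they were 21.8% and 11.3% (ratio 1.92, 1.57 to 2.36). The interval of the log2 ratio lay above 0 for 9 of the 10 genes in each group. It included 0 for Tesc among cells with Y-linked UMIs (-0.01 to 0.30) and for Igsf23 among cells with Xist (-0.16 to 0.41).

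Pairs of the genes were found in the same cell little more often than their separate shares would give. In CKO naive-like CD4 cells 37 of the 45 pairs had at least 10 cells expected under independence. The observed number exceeded it in 29 of the 37, with a median ratio of 1.13. In control cells it did in 16 of 25 pairs, with a median of 1.06. The pair with the highest ratio was Pdlim4 and Fam46a in both libraries, at 54.7 cells against 36.2 expected in CKO (1.51) and 15.6 against 11.1 in control (1.40). Fam46a and Tesc were found together less often than expected, at 45.2 cells against 53.4 in CKO (0.85) and 18.9 against 22.0 in control (0.86). CKO cells with Dapl1 detected had a mean of 1.40 of the other 9 genes and cells without it 1.11, and control cells 0.98 and 0.88. Dapl1 itself was detected in 42.4% of CKO and 37.7% of control naive-like CD4 cells at this depth.

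Cells with more of the genes differed in other transcripts. In CKO naive-like CD4 cells Lck, a kinase at the first step of receptor signalling in T cells, was at 1067 CPM with 0 or 1 of the genes detected, 1196 CPM with 2 and 1347 CPM with at least 3 (1317 to 1378). In control cells Lck was at 447, 434 and 434 CPM. Lck is also a leading gene of the member-led cluster, at 1408 CPM in its CKO cells and 925 CPM in those of the other clusters. The part of the cluster in the rise of Lck was not tested. Sox4, a factor of immature T cells and recent thymic emigrants, was lower with more of the genes in both libraries, at 99.7 and 55.2 CPM in the first and last group of CKO cells and 81.6 and 52.0 CPM in those of control cells. Prmt5 was at 3.22, 3.07 and 3.00 CPM in these groups of CKO cells, with intervals that overlapped (1.74 to 4.80 in the last).

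Across single CKO naive-like CD4 cells, in 1 random draw of 2000 UMIs per cell, the transcripts whose level followed the number of members detected most closely were Tmsb4x (Pearson r 0.18), Crip1 (0.15), Il7r (0.14) and Lck (0.12). In control cells these values were 0.08, 0.10, 0.05 and -0.01. The lowest were Malat1 (-0.15) and Smc4 (-0.15). These are weak correlations over 4007 cells that share 1 library, and 4 of 6047 genes exceeded 0.1.

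Across 10 cell classes and both libraries (20 sums), the transcripts most like each gene were, by Pearson r of log2(CPM + 1), Lypd6b for Dapl1 (0.86), Phf20l1 for Pdlim4 (0.79), Mta3 for Fam46a (0.84), Sugt1 for Ggt1 (0.86), Bcl9 for Ggt5 (0.80), Por for Igsf23 (0.81), Selplg for Glipr2 (0.89), Iqgap2 for Il18r1 (0.91), Pdk1 for Igfbp4 (0.80) and Ckb for Tesc (0.86). Each of these was picked as the highest r of all genes compared, over only 20 sums. How high such a maximum lies without any likeness was not tested. The sums include B-like cells and hold differences both between classes and between libraries. Among the members themselves, Glipr2 and Il18r1 were most alike (0.86), followed by Ggt5 and Igfbp4 (0.84), while Fam46a and Tesc were least alike (-0.49). The 10 genes therefore did not share 1 pattern over cell classes.

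Other gene groups in naive-like CD4 cells gave context. Of 11 genes of the naive and quiescence list, 9 had an interval below 0, as did 12.4% of all genes, and 1 above it, as did 22.6%. The median log2 ratio of the list was -0.16, against 0.04 over all genes. Il7r, the interleukin-7 receptor, was at 764 and 516 CPM (log2 0.57), and Ccr7 (log2 -0.47), Ets1 (-0.31) and S1pr1 (-0.24) were lower. Of 11 p53 targets at the minimum, 7 had an interval above 0 (22.6% of all genes) and none below (12.4%): Phlda3 had 162 UMIs in CKO and 9 in control (log2 3.70), Cdkn1a 85 and 10 (log2 2.62), and Bax was at 185 and 121 CPM (log2 0.61). Of 7 interferon response genes, 4 had an interval above 0 (22.6% of all genes) and none below, with Usp18 at 37.3 and 11.4 CPM (log2 1.71) and Ifit3 at 17.7 and 7.09 CPM (log2 1.32). Of 9 T cell receptor response genes, 2 had an interval above 0 (22.6%) and 2 below (12.4%), with Nr4a1 at 62.6 and 76.3 CPM (log2 -0.28). Of 7 memory and effector genes, Lgals1 was at 116 and 76.3 CPM (log2 0.61) and Itgb1 at 11.1 and 15.8 CPM (log2 -0.51). Of 5 recent thymic emigrant genes, Itm2a was at 105 and 131 CPM (log2 -0.32) and Sox4 at 79.1 and 70.5 CPM (log2 0.16). All 5 had an interval below 0 in the member-led cluster against the other clusters of CKO cells, as did 30.4% of all genes, whose median log2 ratio was -0.13. This was not particular to that list. So did 10 of the 11 naive and quiescence genes (median -0.35) and 8 of the 9 T cell receptor response genes (median -0.27). Among them were the naive markers Ccr7 (log2 -0.46), Tcf7 (-0.38) and Lef1 (-0.18).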

How the data were processed

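The 2 libraries were analysed as 1 sample each. The deposited values are raw counts of UMIs for each gene and barcode. Cell Ranger 3.1.0 made them, per the file headers. The build was mm10, and CASAVA 1.8 and Seurat 2.3.4 are also listed, with no step given, per the submitters' processing notes.

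The cell filter asked for 500 detected genes and a mitochondrial share below 10%. Doublets were not removed. Cells were scaled to 10000 and clustered with scanpy 1.11.5 on 2000 variable genes without the 10 members (30 components, 15 neighbours, Leiden resolution 1). Classes were named from marker percentages. CPM came from UMIs summed over the cells of a class in 1 library. With 1 library per group there is no test. Ratios carry exact conditional binomial intervals, levels exact Poisson and shares exact Clopper-Pearson intervals, all at 95%. Intervals and exact thinning were tested on simulated data. The simulated sums were Poisson counts, as the intervals assume, so spread between cells or mice was not covered.

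Shares at 2000 UMIs are exact expectations over all draws. They replaced 1 random draw after its values had been seen, because the ratio depended on the draw, which lay above the expectation. The expected cell numbers need not be whole, and 35 CKO and 10 control naive-like CD4 cells were too shallow.

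Members, lists and naming thresholds were chosen with earlier results of these data known. Some list genes are not reported here and were left out of the list counts. All 10 members are named, up to 4 genes per list with the largest ratio, the neighbours of members, and the genes most like them. Positions came from GENCODE vM21 (30766 of 30905 identifiers matched) and promoters from RefSeq.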

Additional observations from a re-analysis of the deposited data

Results flagged for a closer look

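Dapl1 lay on opposite sides of 0 in different classes. Its log2 ratio of CKO over control was 0.36 in naive-like CD4 cells, -0.12 in naive-like CD8 cells and -1.69 in memory-like CD4 cells, each with an interval off 0. Tesc was at 0.17 in naive-like CD4 cells and at -0.51 in memory-like CD4 cells. With 1 library per group the differences between classes were not tested.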

How the results depend on the processing

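Each group is 1 library, so leaving out a replicate was not possible, and depth sets the counting error. No paired analysis was possible because each group has 1 library and the labels give no shared replicate numbers. No summed ratio or ratio of shares with at least 3 members changed direction under any alternative run. The share of naive-like CD4 cells in the member-led cluster did, at 35.4% in CKO and 38.5% in control with no cell filter. All alternatives used the 2 libraries on which the genes were chosen, so a kept direction supports nothing by itself. The number of members at least 2-fold higher in naive-like CD4 cells stayed at 1 under all 14 alternatives.

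The summed log2 ratio in naive-like CD4 cells, 0.54, was 0.59 with gates on UMIs, 0.50 with scaling by the median ratio, 0.63 without Dapl1, 0.50 without Dapl1 and Igfbp4 and 0.28 without the member-led cluster. In naive-like CD8 cells, 0.28, it was 0.39 with the stricter cell filter, 0.33 with no cell filter, 0.33 with gates on UMIs, 0.32 in cells with Y-linked UMIs, 0.21 in cells with Xist, 0.20 with scaling by the median ratio, 0.69 without Dapl1 and 0.75 without Dapl1 and Igfbp4. In Treg-like cells, 0.46, it was 0.28 without Dapl1 and Igfbp4.

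The ratio of shares with at least 3 members, 1.84, was 2.27 with thinning to 1000 UMIs, 1.25 with no thinning, 1.34 for 2 or more members, 2.93 for 4 or more and 1.33 without the member-led cluster. In 1 random draw it was 1.99. Of single genes, only Dapl1 reversed, to -0.079 without the member-led cluster. The settings without the member-led cluster, without Dapl1 and Igfbp4 together and with 1 random draw were added after seeing the data. The cause of these shifts was not tested.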
